A study of Mus musculus with 96 samples.

Results

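HSC1 cells are bone marrow cells sorted one by one for c-Kit, Sca-1 and CD150 and against lineage markers, CD34, Flt3 and CD48, so each had passed a gate that excludes cells with CD34 protein on the surface. The comparison here asked what else differed between the HSC1 cells in whose libraries Cd34 transcripts were counted and those in which none were. The groups were chosen by the measured raw Cd34 count alone. Of the 96 cells in the series, cells 1, 2, 6 and 36 were left out in advance. Each of them had low gene counts, few detected genes or a high ERCC share. Of the 92 kept cells 53 had a count above 0 (Cd34-counted cells) and 39 had a count of 0 (Cd34-0 cells).

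All cells came from C57BL/6 mice aged 9 to 12 weeks and were prepared by a full-length single-cell RNA-seq protocol with ERCC spike-ins, a set of artificial RNAs put into every well. Both groups share the strain, the tissue, the gate and the protocol. The sources used here do not give the animal of each cell, so each group is treated as 1 sample: the values are means or medians over cells, no p-value is given, and an SD is the spread between cells, not between animals. Reads carry no molecular identifiers, so the 95% exact binomial (Clopper-Pearson) intervals cover counting error only. A normalized count is the raw count divided by the size factor of the cell, and a fold is the ratio of the mean normalized counts of the 53 and the 39 cells.

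CD34 is a heavily glycosylated transmembrane sialomucin of hematopoietic stem and progenitor cells and of the endothelium of small vessels. In high endothelial venules its sugar chains, once sialylated and sulfated, serve as selectin ligands, and its short cytoplasmic tail binds the adaptor CrkL. In adult mouse bone marrow the long-term stem cells lie mostly in the CD34-negative or CD34-low part of the c-Kit+ Sca-1+ cells, and multipotent progenitors are CD34 positive. The antigen is also known to appear on mouse stem cells after activation.

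Cd34 lies on the plus strand of chromosome 1 from 194938819 to 194961279 in GENCODE M21 (GRCm38), with 5 annotated transcripts, 2 of them protein coding. The antisense gene Gm16897, on the minus strand from 194955759 to 194976960, shares 148 of the 7290 exonic bases of Cd34. Gm16897 is not listed in the count table and the strand setting of the counting is not given in the sources used here, so reads from these 148 bases cannot be assigned to one gene. The 250 bases upstream of the RefSeq start of Cd34 (GRCm38.p6, chr1:194938571-194938820, plus strand) are shown because Cd34 is the gene that divides the cells and GATA and ETS factors are among the stem cell factors compared between them. Capitals mark GATA, the core read by GATA factors, and GGAA, the core read by ETS factors, searched on both strands.

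Cd34 promoter: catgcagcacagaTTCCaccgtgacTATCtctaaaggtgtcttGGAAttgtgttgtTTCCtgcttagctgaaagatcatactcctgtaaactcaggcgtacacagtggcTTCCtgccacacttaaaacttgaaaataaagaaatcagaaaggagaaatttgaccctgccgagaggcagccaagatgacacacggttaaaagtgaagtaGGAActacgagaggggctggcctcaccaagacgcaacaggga

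GATA occurs 1 time in this window, on the minus strand, and 53.6% of 32851 RefSeq promoter windows of the same length hold it. GGAA occurs 5 times, and 93.4% of the windows hold it. AACNG, the core of MYB sites, occurs 2 times and is held by 74.2% of the windows, whereas TGTGGT of RUNX sites does not occur and is held by 14.05%. CCNCNCCC of SP and KLF sites, CCAAT and TATAAA do not occur either. These letters describe the window only.

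The Cd34 counts were not spread evenly above 0. In the 53 Cd34-counted cells the raw count ran from 1 through a median of 167 to 1122, with a mean of 234 ± 208 (SD). The total was 12415 (Poisson interval 12198 to 12635). That interval treats reads without molecular identifiers as independent and leaves out the spread between cells, so it understates the uncertainty of the total. Of these cells 5 had counts of 1 to 9, 6 had 10 to 99, 27 had 100 to 299, 13 had 300 to 599 and 2 had 600 or more. The cells just inside the threshold were cells 34, 40 and 49 with 1 count each, cell 47 with 2 and cell 79 with 7. The next were cell 66 with 16 and cell 32 with 33, and just outside lie the 39 cells at 0. After normalization the mean was 209 ± 164 over the 53 cells and 120 ± 162 over all 92.

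A count of 0 sets an upper limit on what the reads sampled rather than an absence. At 3 counts, the limit in a Cd34-0 cell was 0.864 to 4.06 CPM, the count scaled to the total gene counts of the cell, with a median of 1.74, and in the Cd34-counted cells Cd34 ran from 0.629 to 473 CPM with a median of 95.9. Most Cd34-counted cells therefore lay far above this limit, and the lowest lay within it. The limit covers the sampling of reads only. Transcripts lost before sequencing are not covered, so it does not bound the Cd34 level of a cell. Of the 92 cells 57.6% were Cd34-counted (interval 46.9% to 67.9%).

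**Figure D1:**
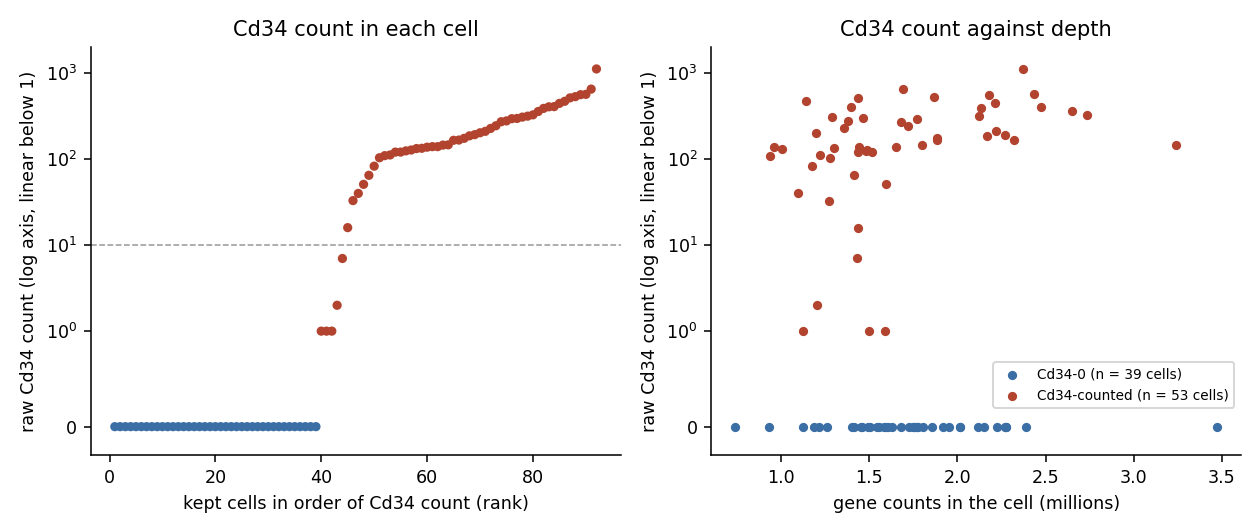
Raw Cd34 count of each of the 92 kept cells (points), in rank order on the left and against the gene counts of the cell on the right, on a log axis that is linear below 1; the dashed line stands at 10 counts. The 39 Cd34-0 cells (blue) are spread over nearly the whole range of depth of the 53 Cd34-counted cells (red), and 5 red cells lie below the line.

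Few genes of a like abundance were counted in so few cells. Among 1132 other genes with a raw mean of 112 to 162 counts, within 1.2 times of Cd34 at 135, the number of cells with a count ran from 27 to 92 with a median of 67, and 93.4% of them were counted in more than 53 cells. The 1 spike-in within 1.5 times of that mean was counted in 64 cells. Cd34 counts were thus concentrated in fewer cells than those of most genes of the same raw mean.

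The Cd34-counted cells did not have deeper libraries, but more of their reads came from the cell and less from the spike-ins. Gene counts had a median of 1496740 (935064 to 3242060) in the Cd34-counted and 1726440 (739093 to 3473150) in the Cd34-0 cells. Detected genes had a median of 6738 against 6514, the ERCC share one of 1.11% against 1.33%, and the share of mitochondrially encoded counts one of 3.98% against 4.26%. The RNA-to-spike-in factor, the gene size factor divided by the ERCC size factor, had a median of 1.04 against 0.830. The groups overlapped in each of these measures. Their part in the results that follow was not tested, beyond the alternative scalings and classes of cells given there.

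**Figure D2:**
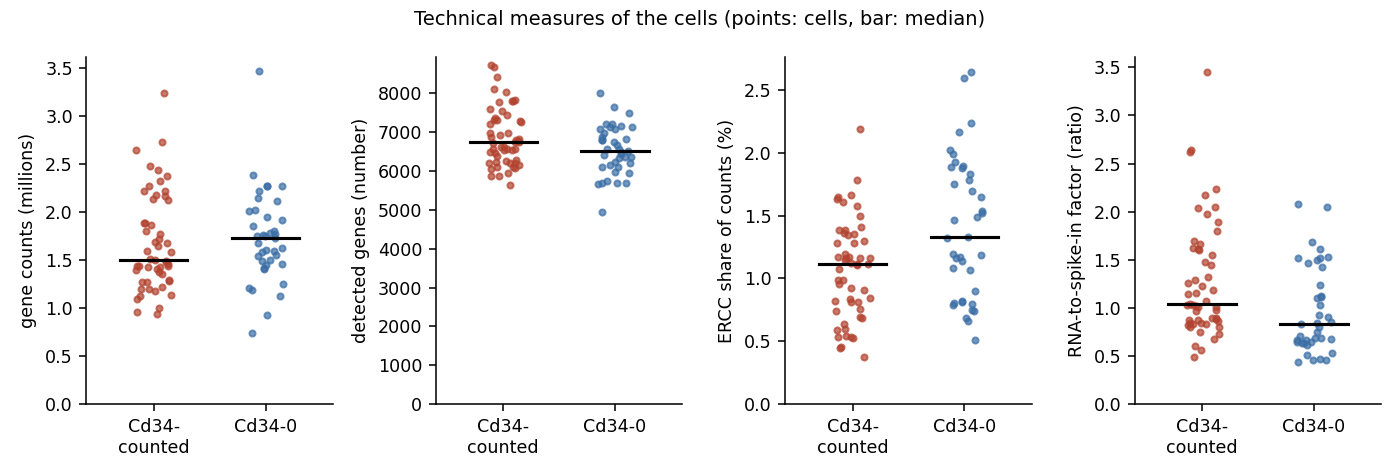
Gene counts, detected genes, ERCC share of all counts and RNA-to-spike-in factor of each cell (points) with the median of the group (bar), for the 53 Cd34-counted and the 39 Cd34-0 cells. The medians of the RNA-to-spike-in factor are 1.04 and 0.830, and the points of the groups overlap in all panels.

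The share of Cd34-counted cells moved with the same measures. With the 92 cells in classes of 31, 30 and 31 by detected genes, 15 of 31, 18 of 30 and 20 of 31 cells were Cd34-counted (48.4% in the lowest class and 64.5% in the highest). By the RNA-to-spike-in factor the classes held 11, 21 and 21 Cd34-counted cells (35.5% in the lowest class and 67.7% in the highest). By gene counts the order was different, with 23, 13 and 17 (74.2%, 43.3% and 54.8%). The exact intervals of neighbouring classes overlapped in all 3 series.

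Of the other surface markers of the gate, Kit, the receptor of stem cell factor, was counted in all 53 Cd34-counted and in 38 of the 39 Cd34-0 cells, at a mean normalized count of 364 ± 247 and 382 ± 309. Ly6a, which encodes Sca-1, had 669 ± 750 against 1033 ± 1034, a ratio of 0.65. Slamf1, which encodes CD150, had 174 ± 229 against 194 ± 256, and Cd48 had no count in any cell. Flt3, the other receptor that the gate excludes and a marker of multipotent progenitors, was counted in 14 of 53 against 3 of 39 cells (26.4%, interval 15.3% to 40.3%, against 7.69%, interval 1.62% to 20.9%). Read the other way, 14 of the 17 Flt3-counted cells and 39 of the 75 others were Cd34-counted. These intervals overlap, and Flt3 was below the filter on low values. Procr, which encodes the stem cell marker EPCR, had 402 ± 371 against 473 ± 385, in 50 and 35 cells.

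Both groups carried the transcripts of stem cells, and several transcripts that define mature lineages were counted in neither. Of 27 marker genes of other cell classes 7 had no count in any kept cell, among them Cd3e and Il7r of lymphocytes, Mpo, Elane and Ctsg of granulocytes and Fcer1a of mast cells. The 16 lymphoid genes with a count summed to a median normalized count of 790 (91.995 to 1992) in the Cd34-counted and 972 (246 to 2699) in the Cd34-0 cells. For the 16 myeloid genes the medians were 1631 (440 to 3971) and 1373 (184 to 3170), with Lyz2, which encodes lysozyme, counted in every cell at 1093 ± 572 and 823 ± 451 and Prtn3, a granule protease, in 52 and 38 cells at 412 ± 305 and 416 ± 347. Cd79b, of the B cell receptor, was counted in 36 and 27 cells at 90.2 ± 108 and 131 ± 130. The 12 erythroid genes had 3130 (651 to 8319) and 3837 (646 to 16975), nearly all of it Car2, a carbonic anhydrase. The mast cell and stromal genes had a median of 0 in both groups and at most 397 in a cell. The 21 endothelial genes had 2521 (1280 to 8396) and 2688 (876 to 4734), with Cdh5 counted in 1 and Kdr in 10 cells in all.

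For all other genes, Cd34-counted and Cd34-0 cells differed little. Of 21211 genes with a count in a kept cell, 5885 had a mean normalized count of at least 50 over the 92 cells and a count in at least 20 cells. Among these, 73 (1.24%) had a mean at least 2-fold higher in the Cd34-counted cells and 92 (1.56%) one at least 2-fold lower. The median log2 ratio was -0.04 with an SD over genes of 0.42, and 44.8% of the genes had the higher mean in the Cd34-counted cells, although 57.98% were counted in a larger share of them. For none of the 5885 genes did the groups separate, and for none was the difference of the means larger than the larger of the 2 SDs over cells. It exceeded the smaller SD for 19 genes. Every one of the 165 genes past 2-fold had cells at 0 in both groups, as did 5158 of all 5885. Their mean levels were low, with a median of 62.3 for the higher and 67.98 for the lower genes, beside 111 over all genes tested. When genes were scaled by the spike-ins instead, the larger RNA-to-spike-in factor of the Cd34-counted cells counted as expression. The median of all genes then moved by 0.41 on the log2 scale, and of 6276 genes tested 426 were higher and 16 lower. When genes were scaled by total gene counts, 87 were higher and 69 lower of 6033 tested.

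The genes most clearly higher in the Cd34-counted cells were Bach1 and Ptprs. Bach1 (chromosome 16, 87698945 to 87733346), a repressor of transcription that is released from DNA by heme, had a normalized count of 0 to 641 with a median of 131 in the Cd34-counted and of 0 to 319 with a median of 0 in the Cd34-0 cells. It was counted in 44 of 53 cells (83.02%, interval 70.2% to 91.9%) against 19 of 39 (48.7%, interval 32.4% to 65.2%). The levels of the groups overlapped from 0 to 319, while the intervals of the shares did not overlap. That was so for 18 of the 5885 genes, of which 17 (0.289%) had the larger and 1 (0.017%) the smaller share in the Cd34-counted cells. The leading genes were ranked by a difference that such shares feed, so these intervals only describe them. Its mean was 155 ± 166 against 59.6 ± 97.4, a ratio of 2.59, and of the 63 cells with a Bach1 count 44 were Cd34-counted, beside 9 of the 29 without one.

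Ptprs (chromosome 17, 56412426 to 56476483), a receptor tyrosine phosphatase that binds sugar chains of proteoglycans, ran from 0 through 37.1 to 518 in the Cd34-counted and from 0 through 0 to 285 in the Cd34-0 cells. It was counted in 42 and in 17 cells, and its ratio of means was 3.94. Its log2 ratio was 1.98, and 1.29 when the counts were thinned to one depth and the cells grouped again. Again the levels overlapped up to the highest Cd34-0 cell and the intervals of the shares, 65.9% to 89.2% and 27.8% to 60.4%, did not. The intervals were also apart for Xpc (chromosome 6, 91489305 to 91515888), the damage sensor of nucleotide excision repair, counted in 38 and 14 cells with a ratio of 2.25.

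The other leading genes with a higher mean have varied roles. Tia1, an RNA-binding protein of stress granules, ran from 0 through 222 to 823 against 0 through 37.5 to 685, with a ratio of 2.18. Tfdp2, the partner with which E2F factors bind DNA, had a ratio of 2.15 and was counted in 45 and 24 cells. Trp53bp1, which directs double-strand breaks to end joining, had 2.89 (40 and 17 cells), and the intervals of its shares, 61.7% to 86.2% and 27.8% to 60.4%, were also apart. Apobec1, a cytidine deaminase that edits messenger RNA, had 2.20. Its highest value, 752, was in cell 18 of the Cd34-0 group, and its log2 ratio of 1.14 was 1.80 without the highest cell of each group and 1.95 without cells 18, 49, 53, 66 and 78. Mocs2, a subunit of molybdopterin synthase, had 2.01 and the protease Capn5 2.10. Ttc27 had 2.71 and Adck2 2.47. St3gal4, a sialyltransferase that builds the sialylated ends of selectin ligands such as those on CD34, had 2.04, in 31 of 53 against 13 of 39 cells. In all of these the levels of the groups overlapped from 0 upward.

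Among the genes with a lower mean in the Cd34-counted cells, S100a6 led. S100a6 (chromosome 3, 90612882 to 90624181), a small calcium-binding protein also called calcyclin, ran from 0 through a median of 28.5 to 349 in the Cd34-counted and from 0 through 109 to 1474 in the Cd34-0 cells. It was counted in 30 of 53 cells (56.6%, interval 42.3% to 70.2%) against 31 of 39 (79.5%, interval 63.5% to 90.7%). The groups overlapped over the whole range of the Cd34-counted cells, and the highest counts were all in Cd34-0 cells. The mean was 64.7 ± 83.3 against 202 ± 302, a ratio of 0.32, which is -1.65 on the log2 scale (-0.83 with ERCC size factors).

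Ell2, an elongation factor of RNA polymerase II, had a ratio of 0.34 and was counted in 15 and 22 cells. Rad52, a protein of homologous recombination, had 0.34 (21 and 25 cells). Casp1, the protease of the inflammasome, had 0.48 and Samd9l, an interferon-induced brake on growth, 0.49. Ing1, a reader of methylated histone H3, had 0.44, Ythdf1, a reader of methylated adenosine in messenger RNA, 0.47 and Acsl3, a ligase that activates long fatty acids, 0.49. Mcoln2, a cation channel of lysosomes, had 0.47, the polysialyltransferase St8sia4 0.46, Tmed1, a cargo receptor of the early secretory pathway, 0.48 and Tspyl3 0.32. The levels overlapped from 0 upward in each. With ERCC size factors the log2 ratios of the 12 leading lower genes ran from -1.16 for Tspyl3 to -0.32 for Casp1. Of the 24 leading genes, 9 were past 2-fold under each of 10 alternatives: Bach1, Ptprs, Trp53bp1, Apobec1, Ttc27, Adck2, St3gal4, Ell2 and Tspyl3. Mocs2 and Casp1 were past it under 4 and Acsl3 under 2. Of the 92 lower genes 78 were counted in no larger share of the Cd34-counted cells, and of the 73 higher ones 71 were counted in a larger share. Over all 5885 genes the share was larger for 3412 and not larger for 2473. Such shares feed the means that made the calls, so these numbers only describe them.

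**Figure D3:**
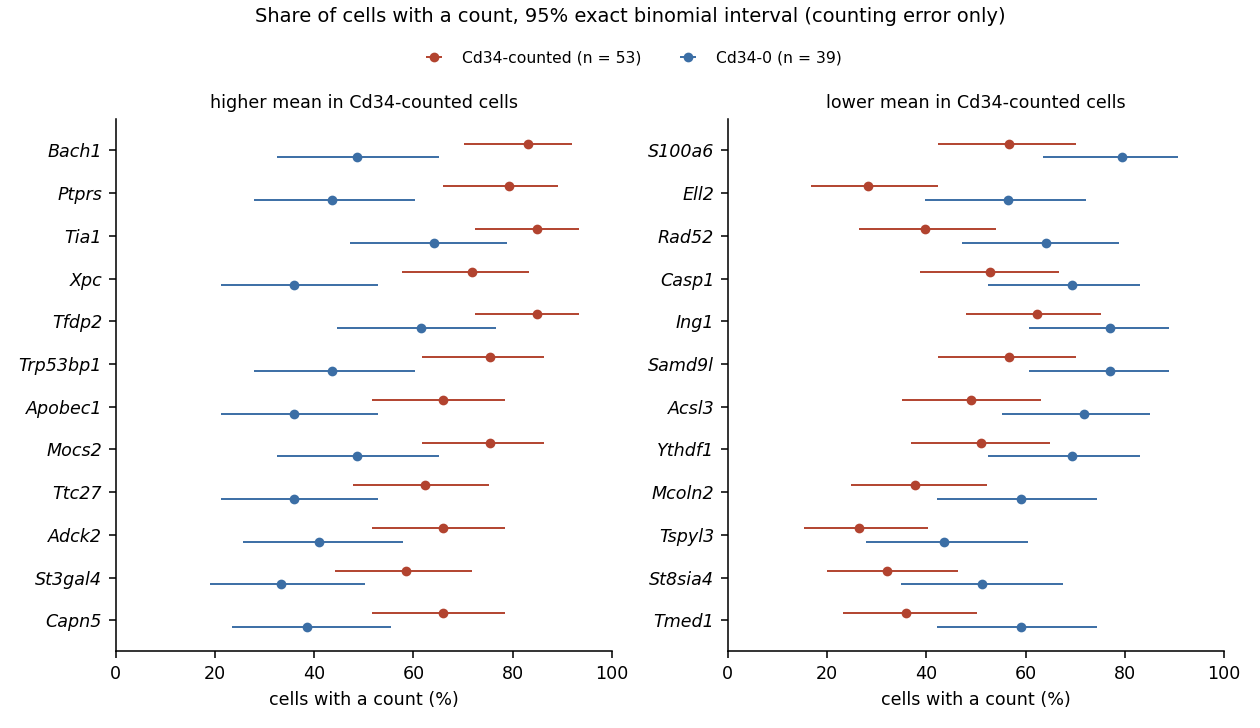
Share of cells with a count of the 12 leading genes with a higher (left) and a lower (right) mean in the Cd34-counted cells, for the 53 Cd34-counted (red) and the 39 Cd34-0 cells (blue), with 95% exact binomial intervals. The intervals of Bach1, Ptprs, Xpc and Trp53bp1 do not overlap and those of the other genes, S100a6 among them, do, beside 18 genes with intervals apart among all 5885.

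**Figure D4:**
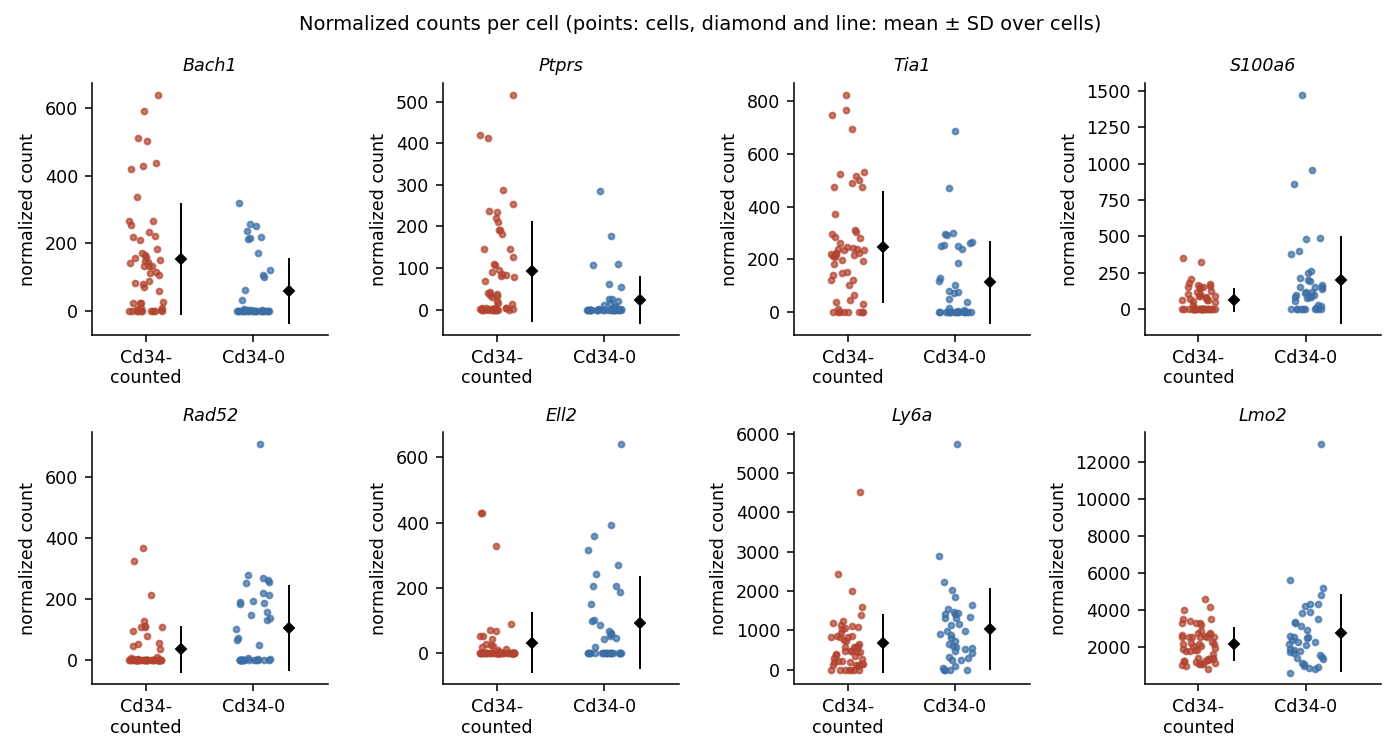
Normalized count of 8 genes in each cell (points) with mean ± SD over cells (diamond and line), in the 53 Cd34-counted and the 39 Cd34-0 cells. In every panel the points overlap; for S100a6 the highest cell reaches 1474 in the Cd34-0 and 349 in the Cd34-counted cells.

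The sialomucins related to CD34 and the enzymes and partners of selectin ligands showed no shared direction. Of 10 listed sialomucins and mucin-like proteins 7 passed the filter, 0 of them past 2-fold, with a median log2 ratio of -0.06. Over all genes tested, 1.24% were past 2-fold higher and 1.56% lower. Cd24a, a small mucin-like antigen, was counted in all 92 cells at 1099 ± 619 against 1146 ± 570. Cd164, a sialomucin of progenitors, had 352 ± 323 against 489 ± 396 and Muc13, a transmembrane mucin, 379 ± 394 against 317 ± 428. Podxl, the closest relative of Cd34, was below the filter and was counted in 12 and 6 cells. Of 18 enzymes and partners of the selectin ligands 7 passed the filter, with a median of -0.10: St3gal4 was past 2-fold higher and Selp, which encodes P-selectin, past 2-fold lower at 29.4 ± 58.7 against 79.95 ± 154. Crkl, the adaptor of the CD34 tail, had 114 ± 137 against 101 ± 111. Gcnt1, which starts the core 2 branch of these sugar chains, had 123 ± 183 against 66.7 ± 119, a ratio of 1.84.

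Among the genes beside Cd34 on chromosome 1 only Cr1l passed the filter, and it did not share the split of Cd34. Cr1l, a regulator of complement downstream of Cd34, was counted in 50 and 36 cells at 291 ± 226 against 302 ± 210. Plxna2, upstream, was counted in 1 and 5 cells, Cd46 in 9 and 3 and Cr2 in 6 and 5, all below the filter and too sparse to compare.

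Markers of stem cells lay below the median of all genes in the Cd34-counted cells, and genes of progenitors and of replication above it, by small amounts. Of 28 stem cell markers 22 passed the filter, 0 of them past 2-fold, where 1.24% of all genes were past it higher and 1.56% lower. The lower mean was in the Cd34-counted cells for 19. The median log2 ratio of the 22 was -0.29 beside -0.04 over all genes, and 0.11 beside 0.36 with ERCC size factors. Of the 22 markers 11 are in the MolO list, which the study chose on these cells, and the median of the other 11 was -0.21. Cdkn1c, which encodes the cell cycle inhibitor p57, had 134 ± 190 against 234 ± 260, Mllt3, a regulator of transcription elongation, 750 ± 808 against 1001 ± 1000, and Ifitm1, an interferon-induced membrane protein, 3081 ± 1775 against 3873 ± 2004. Meis1, a homeobox factor of stem cells, had 680 ± 385 against 659 ± 413 and Hlf, another stem cell factor, 431 ± 364 against 443 ± 268. Each difference was smaller than the SDs. The 28 markers summed to 2508 through 10024 to 22781 in the Cd34-counted and to 3132 through 13827 to 22090 in the Cd34-0 cells.

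Of 23 multipotent progenitor genes 9 passed the filter, 0 past 2-fold (1.24% higher and 1.56% lower over all genes), with a median log2 ratio of 0.31 and 6 higher. The median was 0.16 when the counts were thinned and the cells grouped again. Of the 9 genes 2 are in the NoMO list, which the study also chose on these cells. The other 7 had a median of 0.24, with 4 higher. Myc, a driver of growth and of the exit from quiescence, had 445 ± 670 against 232 ± 359, a ratio of 1.92, and Cdk6, which acts early in G1, 125 ± 160 against 79.6 ± 148 in 40 and 22 cells. Mycn, its relative, ran the other way at 435 ± 474 against 512 ± 640, and Cd27, a receptor of the TNF family, had 357 ± 306 against 360 ± 362. The sum of the 19 genes with a count had a median of 2029 against 1727. Plac8, a gene of early progenitors, was below the filter and was counted in 11 and 2 cells. It was named after its values were seen, and it does not speak for the other listed genes below the filter.

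Of 39 G1/S replication genes 18 passed the filter, 0 past 2-fold (1.24% higher and 1.56% lower over all genes), with 14 higher and a median of 0.33. Mcm6, a subunit of the replicative helicase, had 361 ± 379 against 238 ± 218, and Pcna, the sliding clamp, 521 ± 552 against 400 ± 258. Rfc2, of the clamp loader, had 209 ± 204 against 236 ± 275. Of 50 G2/M genes 13 passed, 0 past 2-fold, with 9 higher and a median of 0.20, Smc4, of condensin, having 331 ± 511 against 275 ± 317. Mki67 was counted in 6 and 2 cells (11.3% and 5.13%) and Top2a in 10 and 9 (18.9% and 23.1%). Both were below the filter. Their shares ran in opposite directions, while both means were higher in the Cd34-counted cells. The G1/S median leaned on a few cells: cells 18, 49, 53, 66 and 78, 3 of them Cd34-counted, had stood apart in an earlier comparison of all cells. Without them the median of the G1/S genes was 0.07 and that of the G2/M genes 0.16. Without the cells with a Mki67 count, an alternative chosen after seeing the data, the G1/S median was 0.32 and the G2/M median 0.11. Within classes of detected genes the medians were 0.16 and -0.00241.

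Of 21 kinases, cyclins and inhibitors of the step from G0 to G1, 13 passed the filter with a median of -0.05. Rbl1, which encodes the pocket protein p107, was past 2-fold higher at 71.5 ± 127 against 30.9 ± 65.5. Ccnd2, a D-type cyclin, had 1012 ± 497 against 1116 ± 596.

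The lowest list median was that of megakaryocyte and platelet genes, of which 12 of 21 passed the filter, 10 had the lower mean and the median was -0.44 (0.07 with ERCC size factors, beside 0.36 over all genes). Selp, the P-selectin of platelets, was past 2-fold lower, but was counted in similar shares, 20 of 53 and 14 of 39 cells. Its median was 0 in both groups and its highest value 238 against 572. Gng11, a G protein subunit, had 303 ± 190 against 472 ± 356 and Cd9, a tetraspanin, 396 ± 251 against 544 ± 465. Vwf, which encodes von Willebrand factor, had 213 ± 257 against 295 ± 413, but was counted in the larger share of the Cd34-counted cells, 38 of 53 against 25 of 39. Itga2b, the integrin CD41, ran the other way at 69.5 ± 145 against 48.6 ± 188. Pf4, a platelet chemokine, was carried by single cells at 159 ± 715 against 213 ± 1099. The 4 lymphoid genes that passed had a median of -0.42 (0.02 with ERCC size factors), among them Ltb, a cytokine of the TNF family, at 295 ± 291 against 442 ± 465. The 4 myeloid genes had 0.14, the 1 erythroid gene, Car2, -0.33 (0.16 with ERCC size factors), and of the mast cell and stromal lists 0 genes passed. Of 10 endothelial genes Egfl7, a secreted factor of vessels and stem cells, was past 2-fold higher at 222 ± 675 against 103 ± 118. Its median was 88.01 against 73.8, and its log2 ratio was 1.11 with and 0.54 without the highest cell of each group, which held 4967 and 603.

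The transcription factors of stem cells had no shared direction. Among 23 tested factors were those of the heptad that binds the enhancers of stem cell genes together. Of these 23, 11 were higher, 12 lower and the median was -0.00354. None was past 2-fold, but only 1.24% of all genes were past it higher and 1.56% lower, so 0 of 23 lies near those shares. Lmo2, a bridging factor of the heptad counted in all 92 cells, ran from 814 through 2156 to 4614 against 620 through 2286 to 12994. Gata2 had 490 ± 277 against 609 ± 341, Erg 261 ± 232 against 326 ± 220 and Fli1 267 ± 242 against 365 ± 443. Runx1 had 218 ± 215 against 185 ± 132, Lyl1 625 ± 452 against 585 ± 324 and Tal1 74.5 ± 81.02 against 90.9 ± 93.2. Nfe2 had 1144 ± 594 against 1147 ± 624. Gfi1b, a repressor at work in erythroid cells and megakaryocytes, was counted in 39 of 53 against 22 of 39 cells at 279 ± 354 against 212 ± 415. Gata1, its partner in these lineages, was counted in 7 and 2 cells and was below the filter.

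Most of the remaining lists had medians close to that of all genes. The median was -0.06 for interferon-response genes, -0.07 for glycolysis, -0.09 for Gimap genes, -0.14 for both mitochondrially encoded genes and niche and adhesion receptors, -0.16 for the surface markers of the gate, 0.06 for MHC class II, 0.08 for endothelial genes and 0.00 for genes used by every cell. Immediate early genes were the exception at -0.26, with members in both directions, with Fos at 800 ± 1330 against 1115 ± 2592 and Jun at 1127 ± 1007 against 838 ± 651. Without the 5 cells that stood apart their median was 0.12, and with ERCC size factors it was 0.22 beside 0.36 over all genes. Gapdh, of glycolysis, had 2225 ± 678 against 2223 ± 706 and Eef1a1, a translation factor, 17574 ± 4099 against 17494 ± 3697. Over all 24 lists with a tested member, 4 of 256 different genes were past 2-fold higher and 2 lower, beside 1.24% and 1.56% of all genes.

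**Figure D5:**
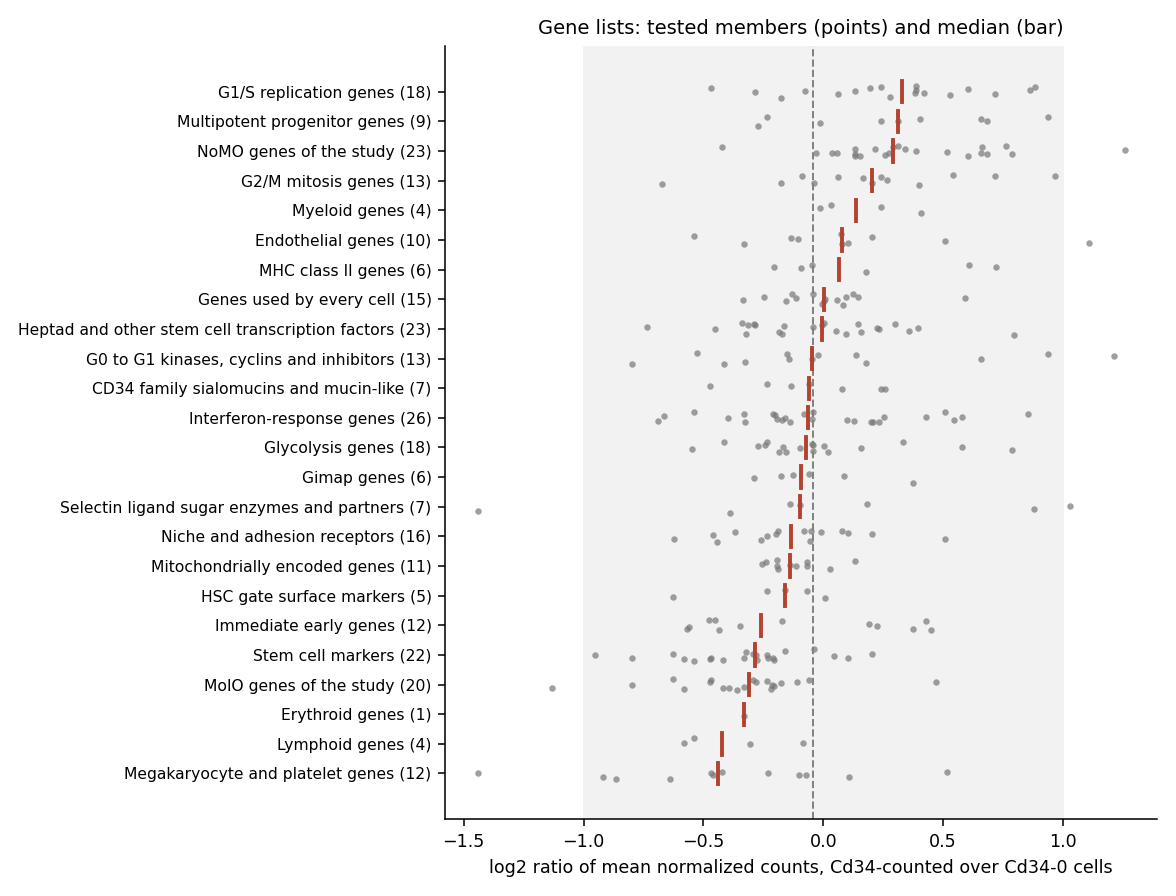
Log2 ratio of the mean normalized count, Cd34-counted over Cd34-0 cells, of each tested member (points) of 24 gene lists with the median of the list (bar). The number of tested members is in brackets, the shaded band spans ratios within 2-fold and the dashed line marks the median of all 5885 genes at -0.04. List medians run from -0.44 for megakaryocyte genes to 0.33 for G1/S genes. With ERCC size factors that of megakaryocyte genes is 0.07, beside 0.36 over all genes.

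The study divided these cells by a MolO score, high in cells that resemble the molecular overlap of several stem cell gates, and drew up gene lists on these same cells, so the direction of such a list here is not independent evidence. Of the 29 MolO genes 20 passed the filter, and 19 had the lower mean in the Cd34-counted cells. Over all genes tested 44.8% had the higher mean in these cells. The median log2 ratio of the 20 was -0.31 beside -0.04 over all genes, and 0.12 beside 0.36 with ERCC size factors. Pde1b, a phosphodiesterase, was past 2-fold lower at 51.96 ± 74.3 against 114 ± 168. Of the 75 NoMO genes 23 passed, 21 had the higher mean and the median was 0.29, with Spred1, an inhibitor of Ras signaling, past 2-fold higher at 82.5 ± 141 against 34.5 ± 91.2. The 29 MolO genes summed to 1175 through 10612 to 25445 in the Cd34-counted and to 1701 through 15036 to 22510 in the Cd34-0 cells. The 75 NoMO genes summed to 4508 through 13603 to 38496 and to 5689 through 10516 to 40410. The ranges overlapped almost fully in both.

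Within the 53 Cd34-counted cells the level of Cd34, which the grouping did not use above 0, followed no gene closely. Spearman's rho with Cd34 on log2(normalized count + 1) ran from -0.44 to 0.47 over the 5885 genes, with 1st and 99th percentiles of -0.32 and 0.31. All points share depth and library preparation, and rho of Cd34 was -0.14 with detected genes, 0.18 with gene counts and -0.26 with the RNA-to-spike-in factor. The genes most like Cd34 were Eef2k, a kinase that slows translation elongation (rho 0.47, Pearson's r 0.49, and r 0.33 without the 2 cells farthest from the median), Cd27 (0.45, 0.30 and 0.34), Wdr48 (0.45, 0.42 and 0.35), Exoc3 (0.44, 0.30 and 0.38) and Arrdc1 (0.42, 0.41 and 0.37). The least like were Lpcat3 (rho -0.44, r -0.42, and r -0.38 without the 2 cells farthest from the median), Ide (-0.43, -0.36 and -0.38), Nudt21 (-0.42, -0.34 and -0.32), Tmem256 (-0.41, -0.30 and -0.33) and Vwf (-0.41, -0.41 and -0.37). Over the 48 cells with at least 10 Cd34 counts, rho was -0.28 for Lpcat3, -0.35 to -0.37 for the other 4 of these and 0.37 to 0.43 for the 5 most like. These are weak relations in sparse counts and are given as a description. Bach1, the leading gene between the groups, had a rho of 0.22 within the Cd34-counted cells, and Ptprs had -0.16.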

How the data were processed

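The authors sequenced 96 single-cell libraries made with the Nextera XT kit, aligned the reads with STAR and assigned them to Ensembl genes with HTSeq, and the deposited values are raw counts of 38406 genes and 92 ERCC spike-ins. Per the submitters' processing notes, the versions were HTSeq 0.6.1, STAR 2.3.0 and SAMtools 0.1.18, and the build was mm10. Cells were sorted singly and no doublet caller was run.

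Size factors were medians of ratios over the 602 genes (and, separately, the 8 spike-ins) counted in all 92 kept cells. Genes with a mean normalized count of at least 50 and a count in at least 20 cells were compared by the ratio of means, called at 2-fold. With 1 sample a group no test was run. The genes named are the 12 in each direction with the largest difference of mean log2(normalized count + 1) among genes past 2-fold, list members past 2-fold or otherwise the 3 with the highest mean, the 5 highest and 5 lowest in rho with Cd34, the genes of the gate and the neighbours of Cd34. Further members were named to describe a list after their values were seen. Members and lists were chosen with earlier results of these data known. Alternatives were other scalings, thinning to 700000 gene counts, other groupings and filters, and sets of cells left out. The steps were run on simulated counts with set changes larger than 2-fold, which does not measure how reliable calls near 2-fold are. The computations used scipy 1.17.1, pandas 2.3.3, numpy 2.4.6 and matplotlib 3.10.9 under Python 3.11.15.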

Additional observations from a re-analysis of the deposited data

Results flagged for a closer look

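Cd34 was also counted in 2 of the 4 cells that were left out of both groups. Cell 36, with 4948251 gene counts and an ERCC share of 2.88%, had 263 Cd34 counts, and cell 1, with 633845 gene counts, had 38. Both values lie within the range of the Cd34-counted cells. Cells 2 and 6 had 0, at 1035 and 794679 gene counts.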

How the results depend on the processing

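The number of Cd34-counted cells and the counts of genes past 2-fold stayed within 1.5 times of 53, 73 and 92 in 19 of 27 comparisons. With ERCC size factors 426 of 6276 genes tested were higher and 16 lower. With a difference of mean log2(normalized count + 1) of at least 1, it was 573 and 235 of the same 5885 genes. With no filter on low values the numbers were 1962 and 2054, and with a mean of at least 200 they were 1 and 1. These filters change the number of genes compared, so their counts cannot be set against 73 and 92 as shares. The ratios are the same at a mean of 200, so 1 of the 73 and 1 of the 92 calls reached that level. Of list medians 188 of 216 moved by less than 0.2 without turning. With ERCC size factors, which moved the median of all genes by 0.41, the medians were 0.11 for stem cell markers, 0.61 for multipotent progenitor genes, 0.0711 for megakaryocyte genes, 0.86 for G1/S and 0.57 for G2/M genes, 0.12 for MolO and 0.67 for NoMO genes, 0.0219 for lymphoid, 0.16 for erythroid and 0.22 for immediate early genes. Relative to the median of all genes under the same scaling, the stem cell markers were at -0.25, megakaryocyte genes at -0.29, MolO genes at -0.25 and multipotent progenitor genes at 0.25. Without cells 18, 49, 53, 66 and 78 the median was 0.0745 for G1/S and 0.12 for immediate early genes. That of G2/M genes was -0.0003412 with Cd34-counted set at 10 counts or more and -0.00241 within classes of detected genes. The cause was not tested. For the 92 named genes that passed the filter, 911 of 920 values lay within 1.5-fold of the reported ratio, but 90 turned in sign, 39 of them with ERCC size factors, and none of these was a gene past 2-fold. Of 290 values of the 29 genes past 2-fold, 47 were within 2-fold. With ERCC size factors the log2 ratio was 1.91 for Apobec1, 1.82 for St3gal4, 1.61 for Myc and 1.08 for Pcna. In 6 lists the median log2 ratio and the median difference of mean log2(normalized count + 1) had opposite signs. No paired analysis was possible because the groups hold different cells. Transcripts below a few counts per cell cannot be told from 0 at this depth, and without molecular identifiers or animal labels the spread between animals is unknown.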
